A study of Mus musculus with 6 samples.

Results

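Of the 10189 genes in the table, 7 encode structural proteins of the pericellular matrix and the basement membrane, and they were taken by their symbols: Col6a1, Col6a2 and Col6a3 (collagen VI), Col4a1 and Col4a2 (collagen IV), Hspg2 (perlecan) and Nid1 (nidogen-1). All 7 had a row, and each is described here. RNA-seq of total RNA was done on primary chondrocytes, the cells of cartilage. They were freed with collagenase from articular cartilage of knees and hips of 5-week-old C57BL/6 mice and grown in culture with 10% serum. For all samples the time in culture was 1 week per the growth protocol and 10 days per the design text. The comparison asked what differs when miR-34a is missing: 3 samples came from global homozygous knockouts (KO, labelled MiR-34a -/-) and 3 from wild-type mice (WT), with no treatment in either. The labels give the same model name, Mir34atm1.2 Mrl, on all 6 samples, and do not say whether samples of 1 genotype came from separate animals, so p-values speak of the spread among these 6 samples and may reflect technical spread alone.

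Around each chondrocyte lies a thin pericellular matrix, which passes load and growth factors from the cartilage to the cell. Collagen VI is its hallmark: the chains alpha-1, alpha-2 and alpha-3 join into microfibrils that ring the cell. Basement membranes, the sheets under epithelia and around vessels and muscle cells, rest on a collagen IV network, whose common form holds 2 alpha-1 chains and 1 alpha-2 chain. Perlecan, a large heparan sulfate proteoglycan, and nidogen-1, which binds laminin and collagen IV, link the networks. Perlecan, and lesser amounts of collagen IV and nidogens, are also found in the pericellular matrix of cartilage.

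The missing microRNA and its possible sites in these genes are shown first, because the knockout takes away this sequence. The capitals mark the seed of miR-34a-5p (bases 2 to 8) and, in the 3′ UTRs, the letters complementary to the seed or to its first 6 bases, with 8 bases on each side.
miR-34a-5p: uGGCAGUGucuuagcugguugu
Col6a1: ttcctcctCACTGCCcctaacct
Col6a2: aaggcatgCACTGCCatgcccca
Hspg2: aggcagctCACTGCCccccccca
Col4a2: aatccataACTGCCacctccca
The microRNA lies at chr4:150068473-150068494 on the plus strand (GRCm38, the assembly of mm10; sequence from RefSeq). In the longest annotated 3′ UTR of each gene (GENCODE M21), Col6a1, Col6a2 and Hspg2 each held 1 match to the letters CACTGCC. In Col4a2 only the 6-letter match ACTGCC was found, and Col6a3, Col4a1 and Nid1 held neither. Of 9343 measured genes with such a UTR, 17.9% held CACTGCC and 35.4% held ACTGCC. A match is a run of letters, and none of these was tested as a site.

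The values are TMM-normalized CPM, read counts scaled to an effective library size. The reads behind them number 989217 to 5266617 per library. WT 1 had the most reads, of which 59.1% lay on Rn45s, a ribosomal RNA precursor; leaving out Rn45s, Lars2 and Mir6236, there were 947081 to 1772185 reads. Mir34a, the deleted gene, has no row, and the genotypes rest on the labels. Cartilage markers were present in all 6 libraries: Col2a1 had 801 to 1985 CPM and Acan 75.4 to 312 CPM. Of 8 skeletal muscle markers 0 had a row. In bulk RNA, fewer cells of a type and less RNA per cell cannot be told apart.

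The 2 collagen IV genes were the members that differed most between genotypes, and both were lower in every KO library than in every WT library. Col4a1, which encodes the alpha-1 chain, had 109, 96.0 and 121 CPM in WT 1, 2 and 3 and 8.78, 79.9 and 32.4 CPM in KO 1, 2 and 3. The WT values lay close together, while those of KO were spread 9.10-fold, with KO 1 lowest and KO 2 nearest to WT. Col4a2, which encodes the alpha-2 chain, had 45.9, 45.7 and 41.0 CPM in WT and 4.96, 24.5 and 11 CPM in KO. The KO libraries stood in the same order as for Col4a1, and the groups did not overlap.

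Mean Col4a1 was 109 ± 12.4 CPM (SD, n = 3) in WT and 40.4 ± 36.2 CPM (SD, n = 3) in KO, a 2.69-fold lower mean. Its log2 fold change (log2FC), KO against WT on the log2(CPM + 0.5) scale, was −1.90 (SE 0.63, 95% interval −3.32 to −0.49), and it did not pass the threshold of 0.05 over all genes (limma with Benjamini-Hochberg adjustment, adjusted p = 0.324, unadjusted p = 0.0137). Mean Col4a2 was 44.2 ± 2.74 CPM in WT and 13.5 ± 10.0 CPM in KO, a 3.28-fold lower mean, with a log2FC of −1.94 (SE 0.49, 95% interval −3.05 to −0.83, adjusted p = 0.275, unadjusted p = 0.00322). Over all genes, 89 (0.873%) had a log2FC at or below that of Col4a1. The members were chosen with earlier results of these data known, so this rank is no independent support. With limma at an adjusted p below 0.05, 0 genes (0%) were higher and 1 gene (0.00981%), no member, was lower. At an unadjusted p below 0.05 the lower genes made up 6.40% of the table, and the higher genes 4.64%. Groups without overlap, lower in KO, were seen in 9.57% of all genes, and higher in KO in 8.82%.

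How far collagen IV lay below WT rested on single KO libraries. Without KO 1, the log2FC was −1.08 for Col4a1 and −1.40 for Col4a2. Without KO 2, it was −2.64 for Col4a1 (adjusted p = 0.0684) and −2.49 for Col4a2, which then passed the threshold (adjusted p = 0.0462). The low values rest on few reads: KO 1 held 23 reads of Col4a1 and 13 of Col4a2, against 126 to 206 and 60 to 73 in the WT libraries.

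**Figure D1:**
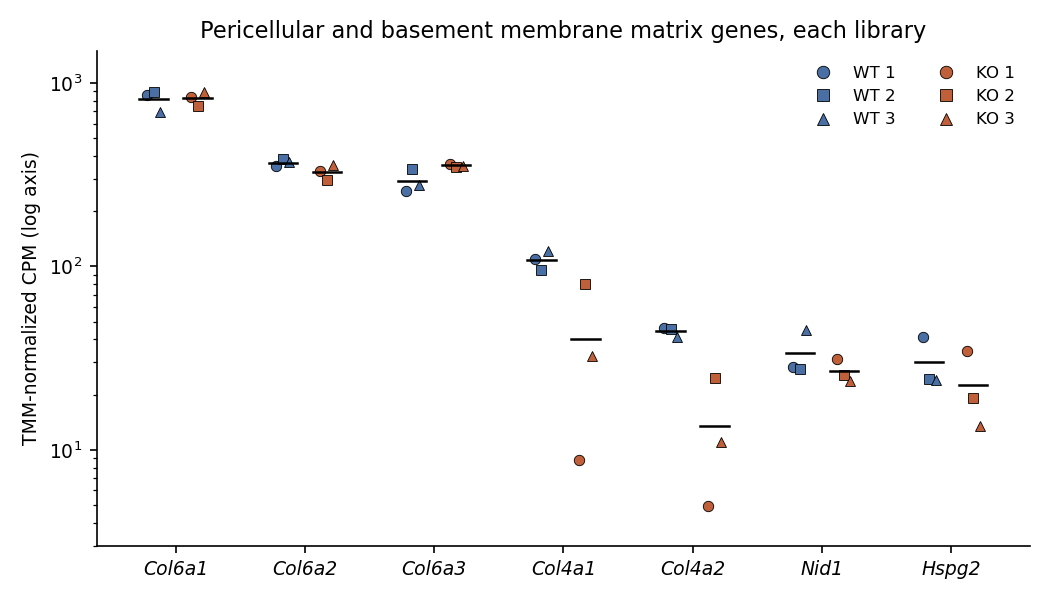
TMM-normalized CPM (log axis) of the 7 genes in each library; symbols give the replicate number and bars the mean of 3 libraries per genotype. The 3 KO values of Col4a1 (8.78 to 79.9 CPM) and of Col4a2 (4.96 to 24.5 CPM) lie below all WT values, while those of Col6a1 and Col6a2 overlap with WT.

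**Figure D2:**
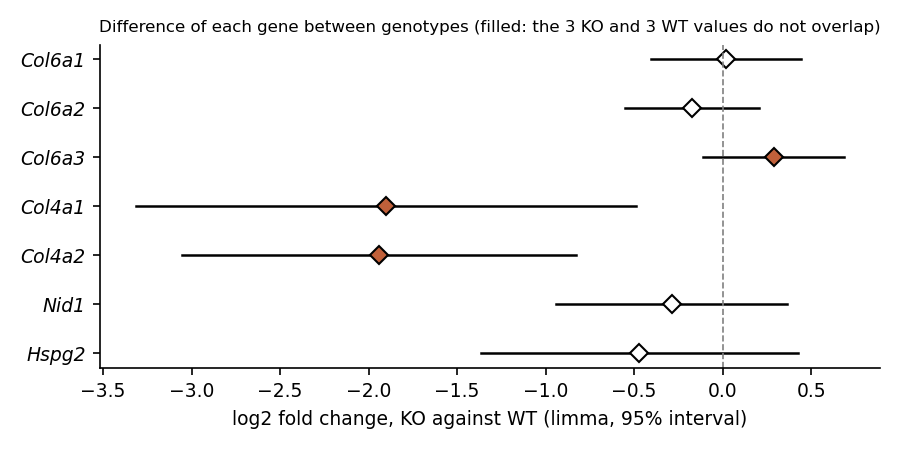
Log2 fold change, KO against WT, from limma with its 95% interval (lines) for each gene. The intervals of Col4a1 (−3.32 to −0.49) and Col4a2 (−3.05 to −0.83) lie below 0, and those of the other 5 genes include 0; none passed an adjusted p of 0.05 over all genes.

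Col4a1 and Col4a2 lie head to head on chromosome 8. In GENCODE M21, Col4a1 spans chr8:11198423-11312826 on the minus strand and Col4a2 chr8:11312805-11449287 on the plus strand, so that their first exons share 22 bases. The short stretch at the 2 starts is shown because these genes varied side by side across the libraries. Capitals mark the 22 shared bases, read on the plus strand at chr8:11312801-11312830 (GRCm38, RefSeq).
Col4a1 and Col4a2 starts: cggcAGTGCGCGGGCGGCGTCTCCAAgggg
The shared bases hold 1 GC box (GGGCGG). In windows from 250 bases before to 50 bases after each RefSeq start, searched on both strands, the Col4a1 window held 1 GC box and 1 CCAAT box, and the Col4a2 window 3 GC boxes and 1 CCAAT box; the windows overlap, so the GC box between the starts stands in both. GC content was 74.0% and 73.7%. Neither window held TATAAA. Over 32851 windows of the same length, 35.7% held GGGCGG, 37.4% CCAAT and 13.6% TATAAA, so these matches are common. The sources used here do not say whether reads were counted by strand. Of the exon bases, 22 of Col4a1 and 65 of Col4a2 lie opposite exons of other genes, out of 7464 and 6619.

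The other measured collagen IV chains were not lower in KO. Col4a3 and Col4a4, whose chains join with alpha-5 in the collagen IV of the kidney filter, had log2FC values of 0.15 (SE 0.33) and 0.02 (SE 0.47), with adjusted p = 0.883 and 0.991. Of the Col4a3 exon bases, 563 lie opposite C430014B12Rik. Col4a5, which encodes the alpha-5 chain, stood the other way: it had 0, 2.29 and 4.10 CPM in WT 1, 2 and 3 and 22.1, 18.6 and 11.6 CPM in KO 1, 2 and 3. Every KO library lay above every WT library, with 115 reads in the 3 KO libraries and 10 in the 3 WT libraries. Its log2FC was 3.23 (SE 0.95, adjusted p = 0.294), which did not pass. With 0 reads in WT 1, this value rests on the pseudocount of 0.5: it was 4.08 with 0.1 and 2.34 with 2, and 2.28 without WT 1. In every row of the table at least 2 libraries reach 7.35 CPM, and Col4a5 met that through KO alone, so a gene with its WT values could be in the table only by differing. Col4a6 has no row.

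Per kilobase of exon, the scale on which genes can be compared, Col4a1 and Col4a2 together gave 83.0% to 87.9% of the summed level of the 5 measured collagen IV genes in WT. In KO they gave 18.2%, 72.8% and 52.2% (KO 1, 2 and 3), below all WT libraries. Without Col4a5, which is in the table only through KO, the share was 84.9% to 87.9% in WT and 26.4%, 84.6% and 61.5% in KO 1, 2 and 3, so KO 2 stood just below the WT range once Col4a5 was left out. In KO 1, Col4a3 (3.91 CPM per kb) and Col4a5 (3.30) were above Col4a1 (1.2) and Col4a2 (0.750). This share was computed after the values had been seen and has no test.

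**Figure D3:**
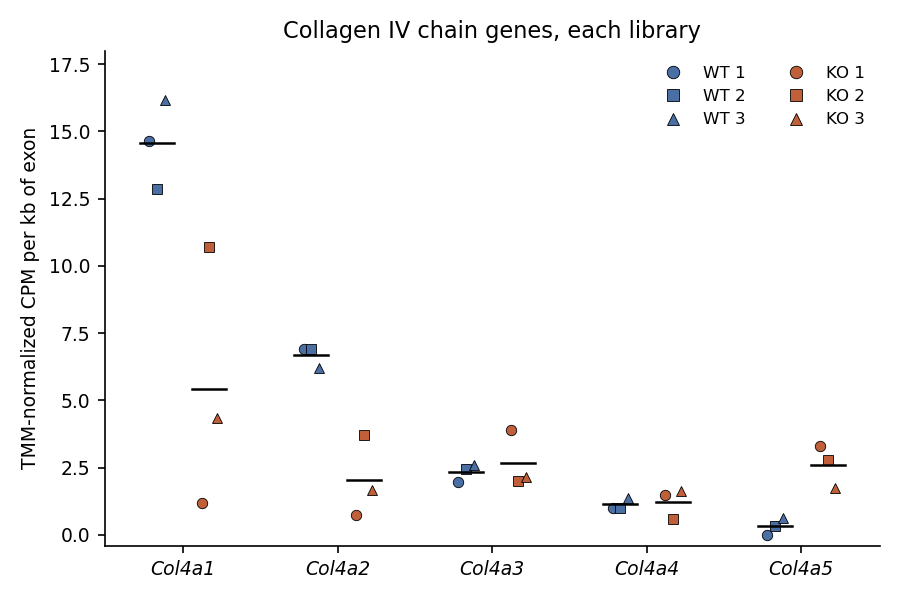
CPM per kilobase of exon of the 5 measured collagen IV genes in each library, with bars at the mean of 3 libraries. Col4a1 and Col4a2 are lower in KO, Col4a3 and Col4a4 overlap between genotypes, and Col4a5 is at 0 to 0.611 CPM per kb in WT and 1.73 to 3.30 in KO.

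Collagen VI stood near the WT level in KO. Col6a1, the alpha-1 chain, had 863, 896 and 699 CPM in WT and 841, 750 and 891 CPM in KO. The groups overlapped, with means of 819 ± 105 and 827 ± 71.6 CPM (SD, n = 3). Its log2FC was 0.02 (SE 0.19, adjusted p = 0.973), with a 95% interval of 0.755-fold to 1.36-fold; it was −0.04 without KO 3 and −0.09 without WT 3.

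Col6a2, the alpha-2 chain, had 352, 383 and 370 CPM in WT and 330, 296 and 357 CPM in KO. KO 3 lay above WT 1, so the groups overlapped by 1 library each. The log2FC was −0.17 (SE 0.17, adjusted p = 0.700, 95% interval 0.682-fold to 1.15-fold). Col6a3, the longest of these chains, had 258, 341 and 280 CPM in WT and 364, 350 and 352 CPM in KO. All 3 KO values lay within 1.04-fold of each other and above the WT values. The difference was small and did not pass: log2FC 0.29 (SE 0.18, adjusted p = 0.558, 95% interval 0.926-fold to 1.61-fold). These 3 genes had the most reads of the members, 411 to 2204 per library, and their intervals leave out a change of 2-fold in either direction. Of their exon bases, 0 lie opposite another gene. Col6a1 (chr10:76708792-76726168) and Col6a2 (chr10:76595762-76623630) lie on the same strand, 85161 bases apart, and Col6a3 lies at chr1:90765923-90843971.

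The linker genes had lower means in KO, with groups that overlapped. Hspg2, which encodes perlecan, had 41.5, 24.4 and 24.0 CPM in WT and 34.7, 19.1 and 13.5 CPM in KO. WT 1 and KO 1 were each the highest of their genotype. The log2FC was −0.47 (SE 0.40, adjusted p = 0.653, 95% interval 0.389-fold to 1.34-fold), and it was −0.17 without KO 3, −0.22 without WT 1 and −0.83 without KO 1. Nid1, which encodes nidogen-1, had 28.3, 27.4 and 45.1 CPM in WT and 31.3, 25.5 and 23.9 CPM in KO. Its higher WT mean came from WT 3: the log2FC was −0.29 (SE 0.29, adjusted p = 0.712, 95% interval 0.521-fold to 1.29-fold) with all libraries and −0.06 without WT 3. With 22 to 91 reads per library, neither interval leaves out a decrease of 1.5-fold. Hspg2 (chr4:137468769-137570630) is on the chromosome of Mir34a, 12497824 bases from it. Nid1 (chr13:13437551-13512269) shares 143 exon bases with the antisense gene Gm48682.

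Ratios within a library are free of the scaling between libraries, and 4 were compared between genotypes by an exact permutation test, two-sided, in which 3 against 3 cannot give a p below 0.10. The CPM ratio of Col4a1 to Col4a2 was 2.38, 2.1 and 2.94 in WT and 1.77, 3.26 and 2.94 in KO. The 2 chains thus stood in overlapping proportions in both genotypes (difference of the mean log2 ratio 0.07, exact permutation p = 0.80, adjusted over the 4 ratios 0.80), though the 95% exact counting interval in KO 1 was wide, 0.859 to 3.80. Col6a1 to Col6a2 was 2.45, 2.34 and 1.89 in WT and 2.55, 2.53 and 2.50 in KO. Here every KO ratio lay above every WT ratio, by little over WT 1 (difference 0.19, exact permutation p = 0.10, the smallest possible, adjusted 0.40). The difference was 0.08 without WT 3. Col6a3 to Col6a1 was 0.299, 0.380 and 0.400 in WT and 0.432, 0.467 and 0.395 in KO, with 1 KO ratio inside the WT range (difference 0.27, exact permutation p = 0.20, adjusted 0.40), and the difference was 0.14 without WT 1. Hspg2 to Nid1 was 0.532 to 1.47 in WT and 0.564 to 1.11 in KO (difference −0.19, exact permutation p = 0.80, adjusted 0.80). PCR reads are not independent molecules, so the intervals cover counting error only.

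**Figure D4:**
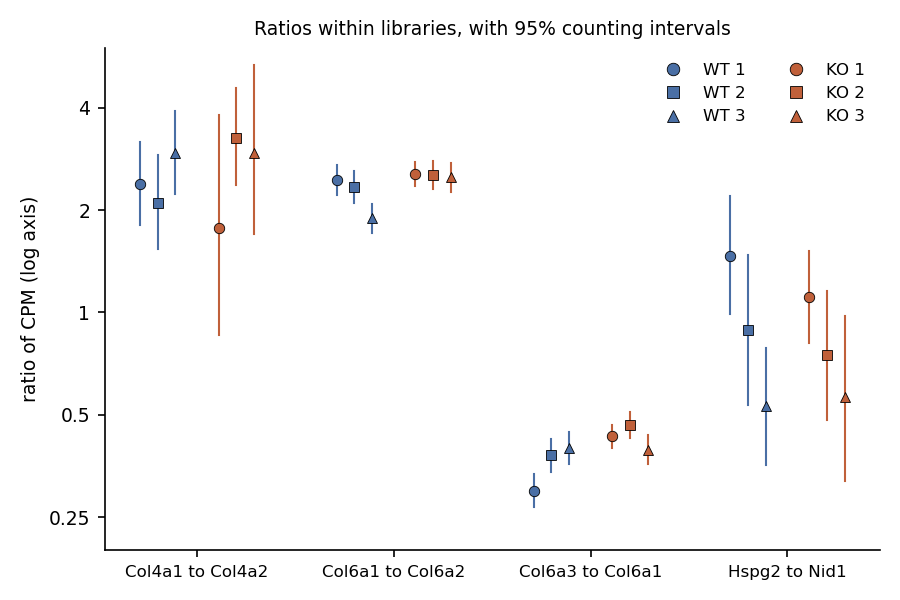
Ratio of the CPM of 2 genes within each library (log axis), with 95% exact counting intervals as lines. The Col4a1 to Col4a2 ratios of the genotypes overlap (1.77 to 3.26 in KO, 2.1 to 2.94 in WT), and the KO ratios of Col6a1 to Col6a2 (2.50 to 2.55) lie above those of WT (1.89 to 2.45).

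Per kilobase of exon, the order of mean levels in WT was Col6a1 (187 ± 24.0 CPM per kb), Col6a2 (44.3 ± 1.85), Col6a3 (24.5 ± 3.57), Col4a1 (14.6 ± 1.66), Col4a2 (6.68 ± 0.414), Nid1 (4.84 ± 1.44) and Hspg2 (2.09 ± 0.696). Each neighbour in this order was separated in range from the next, except Col4a2 and Nid1. In KO the collagen VI genes kept the first places, at 189 ± 16.3, 39.3 ± 3.65 and 29.7 ± 0.615 CPM per kb. Below them the ranges of neighbours overlapped: Col4a1 had 5.41 ± 4.85, Nid1 3.87 ± 0.563, Col4a2 2.04 ± 1.51 and Hspg2 1.57 ± 0.770 CPM per kb. Nid1 thus had a higher mean than Col4a2 in KO and a lower one in WT, and in both genotypes the ranges of the pair overlapped. Among 9797 genes with an annotated length, Col6a1 stood at the 98.4th percentile of mean CPM per kb and Hspg2 at the 12.5th. The level of Col6a2 depends on the length used, since its annotated exons sum to 8326 bases and its longest coding transcript to 4653; with the latter it was 79.2 CPM per kb in WT, still between Col6a1 and Col6a3.

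Other basement membrane genes showed no common direction. Of 34 listed genes 15 had a row, of which 8 had higher and 7 lower log2 means in KO. Over all 10189 genes, 5238 had higher and 4951 lower log2 means. Limma called 0 of the 15, and 4 were higher and 0 lower at p below 0.05 before adjustment. Over all genes, 4.64% were higher and 6.40% lower by that measure. The median log2FC of these 15 genes was 0.02, against 0.02 over all genes. Beside Col4a5, those with the smallest p were Smoc2, a calcium-binding matrix protein, and Sparc, which encodes osteonectin, a collagen IV-binding protein also abundant in bone. Smoc2 had 27.0, 11.4 and 32.2 CPM in WT and 64.5, 109 and 37.9 CPM in KO (log2FC 1.56, SE 0.47, adjusted p = 0.298, and 0.0468 with DESeq2). Sparc had 1153, 1971 and 2070 CPM in WT and 3324, 2699 and 2824 CPM in KO (0.81, SE 0.27, adjusted p = 0.329). For both, all KO values lay above all WT values, opposite to Col4a1 and Col4a2. Laminin chain genes, the partners of nidogen-1, had log2FC values from −0.63 (Lamc1) to 0.50 (Lamb2), and Nid2, the other nidogen gene, had −0.28 (SE 0.23).

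Pericellular partners of collagen VI and perlecan had higher log2 means in KO in 10 of 15 measured genes (22 listed). Their median log2FC was 0.32, and 0.01 without KO 1. Over all genes, 5238 of 10189 had higher log2 means, and the median log2FC was 0.02. Limma called 0 partners, and 1 was higher and 2 lower at p below 0.05 before adjustment, against 4.64% and 6.4% over all genes. Fbn1, which encodes the microfibril protein fibrillin-1, had 422, 286 and 526 CPM in WT and 76.3, 168 and 99.7 CPM in KO, with no overlap (log2FC −1.87, SE 0.32, adjusted p = 0.164; 2442 of its exon bases lie opposite Gm9913). It was called by DESeq2 (adjusted p = 2.69e-05), and by limma without KO 2 (adjusted p = 0.0236). As with Col4a1, KO 1 was its lowest library and KO 2 the highest of KO. Fbln5, an elastic fibre protein gene, had a log2FC of −1.13 (SE 0.30, adjusted p = 0.281), and Comp, the cartilage oligomeric matrix protein gene, 1.03 (SE 0.41, adjusted p = 0.402). Bgn, whose product biglycan binds collagen VI, had 0.10 (SE 0.19).

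Receptors for these proteins had higher log2 means in KO in 16 of 21 measured genes (24 listed), with a median log2FC of 0.33. Over all genes, 5238 of 10189 had higher log2 means. Limma called 0, and 4 were higher and 1 lower at p below 0.05 before adjustment, against 4.64% and 6.40% over all genes. Of those 4, Itga3 and Itga10 are in the table only through KO, like Col4a5. Cspg4 encodes NG2, a proteoglycan that binds collagen VI, and had 20.1, 17.5 and 15.2 CPM in WT and 38.5, 25.5 and 58.1 CPM in KO (log2FC 1.12, SE 0.34, adjusted p = 0.298). The groups did not overlap. The laminin-binding integrin gene Itga3 had 1.67 (SE 0.53, adjusted p = 0.315) and the syndecan gene Sdc3 0.75 (SE 0.20, adjusted p = 0.281). Of the receptors and of the assembly genes described next, edgeR, DESeq2 and limma-voom also called 0. Of the basement membrane and pericellular lists they called 0, except Smoc2 and Fbn1 with DESeq2. DESeq2 gave no adjusted p for some listed genes, so it could not call them. Among these were Col4a5 (DESeq2 unadjusted p = 0.000309), Fbln5, Cspg4 and Itga3. Itgb1, the beta-1 integrin shared by the collagen and laminin receptors, had 0.06 (SE 0.17).

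Genes of collagen assembly and turnover had 16 higher and 13 lower log2 means among 29 measured (31 listed), with a median log2FC of 0.04. Over all 10189 genes, 5238 had higher and 4951 lower log2 means, with a median log2FC of 0.02. Limma called 0 of the 29, and 0 were higher and 2 lower at p below 0.05 before adjustment, against 4.64% and 6.4% over all genes. Those 2 were Loxl2, a lysyl oxidase that crosslinks collagen IV, with 168 ± 16.3 CPM in WT and 97.7 ± 22.5 CPM in KO (log2FC −0.80, SE 0.22, adjusted p = 0.281), and Adamts1, a matrix protease gene, with −0.67 (SE 0.22, adjusted p = 0.323). In both, all KO values lay below all WT values, as was so for 9.57% of all genes. Sulf2, a heparan sulfate sulfatase gene, had 0.76 (SE 0.41). Pxdn, whose peroxidase crosslinks collagen IV, had 0.10 (SE 0.43), and the collagen chaperone gene Serpinh1 −0.08 (SE 0.25).

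Cells of vessel walls make collagen IV in quantity, and contractile smooth muscle genes had lower means in KO, as Col4a1 and Col4a2 did. Of the other mural markers, Mcam (log2FC −1.27, SE 0.59, adjusted p = 0.465) and Notch3 also had lower means, while Pdgfrb and Cspg4 had higher means. Of 14 mural markers 9 had a row, 7 of them with lower log2 means in KO, against 4951 of 10189 over all genes. Limma called 0, and 5 were lower and 1 higher at p below 0.05 before adjustment, against 6.40% and 4.64% over all genes. One of the 5, Myh11, is in the table only through WT. Their summed level was 675 to 773 CPM in WT and 294, 531 and 369 CPM in KO 1, 2 and 3, the order of the KO libraries being that of collagen IV. This order was not particular to mural markers. The endothelial and the macrophage and leukocyte sums given next had it too, and the chondrocyte sum had the reverse order. Acta2, smooth muscle actin, which cultured fibroblasts also make, had 330, 395 and 226 CPM in WT and 59.9, 193 and 84.4 CPM in KO. Cnn1, calponin, had 31.2 ± 4.87 CPM in WT and 8.47 ± 4.23 CPM in KO. Of the mural list edgeR and limma-voom called 0, and DESeq2 called Acta2. Notch3 had a log2FC of −0.34 (SE 0.74, adjusted p = 0.879). Rgs5, Des, Kcnj8, Abcc9 and Higd1b have no row.

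Endothelial markers were low throughout: 5 of 12 had a row, 1 with a higher and 4 with lower log2 means in KO. Over all 10189 genes, 5238 had higher and 4951 lower log2 means. The endothelial markers summed to 35.2 to 64.5 CPM in WT and 21.0, 68.1 and 28.8 CPM in KO 1, 2 and 3. In KO 1 and KO 3, Pecam1 and Cdh5 were at 0, Egfl7 had 1.14 and 5.51 CPM, Plvap 5.72 and 4.89 CPM, and Erg 14.1 and 18.4 CPM, the last above its WT range of 5.86 to 12.6 CPM. Except for Erg and Plvap, these genes reach 7.35 CPM in 2 libraries of neither genotype alone. All 15 macrophage and leukocyte markers had a row, 13 with lower log2 means in KO, against 4951 of 10189 over all genes. They summed to 5200 to 6157 CPM in WT and 1019, 14987 and 3406 CPM in KO 1, 2 and 3. Lyz2, which encodes lysozyme, gave 12165 CPM of the KO 2 sum, and without it the other markers summed to 1552 to 2435 CPM in WT and 425, 2823 and 1649 CPM in KO 1, 2 and 3. S100a8 (17.0 to 25.9 CPM in WT) and S100a9 (36.9 to 51.5 CPM in WT) were at 0 in all KO libraries. Both are in the table only through WT. Chondrocyte markers, 14 of 15 with a row, summed to 2369 to 3672 CPM in WT and 3737 to 6997 CPM in KO, with KO 1 highest. Fibroblast markers, 9 of 10 with a row, summed to 6072 to 7554 CPM in WT and 4273 to 5668 CPM in KO, and without Col3a1 to 3021 to 3287 and 2700 to 3687 CPM. Osteoblast markers, 5 of 7 with a row, summed to 655 to 1991 CPM in WT and 2923 to 3902 CPM in KO; Ibsp, which encodes bone sialoprotein, gave 2628 to 3620 CPM of the KO sums, and without it the sums were 129 to 333 CPM in WT and 281 to 295 CPM in KO. Of the Schwann cell and adipocyte lists 2 of 6 and 1 of 5 had a row. Limma called 0 markers of these lists. At p below 0.05 before adjustment, 7 chondrocyte markers were higher and 0 lower, and 1 fibroblast marker was higher and 4 lower. Of macrophage and leukocyte markers 0 were higher and 3 lower, and of osteoblast markers 1 was higher and 0 lower. By the same measure, 4.64% of all genes were higher and 6.4% lower. DESeq2 called Acan, Col11a2, Lum and Ibsp higher and Col3a1, Fbn1 and Mrc1 lower, and edgeR called S100a9 lower. The part of these cell types in the collagen IV difference was not tested.

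The genes whose pattern across the 6 libraries was most like that of collagen IV were sought among 2993 genes with a mean of at least 50 CPM, by the root mean square difference of log2 deviations from their own means. They were Akap12, a scaffold protein gene (0.27), Myl9, a myosin light chain gene of smooth muscle and other contractile cells (0.32), Sfrp1, a secreted Wnt inhibitor gene (0.37), and A530088E08Rik (0.40). Col4a1 and Col4a2 each differed by 0.16 from their shared mean. Akap12 had 75.4, 96.8 and 70.4 CPM in WT and 10.7, 59.8 and 31.8 CPM in KO, and Myl9 98.0, 103 and 64.5 CPM in WT and 9.92, 81.3 and 21.4 CPM in KO. All of these had KO 1 lowest and KO 2 highest among the KO libraries, as the choice by likeness favours. Limma called none of the 4 (adjusted p = 0.238 to 0.430); DESeq2 called Sfrp1 (adjusted p = 0.00287), and without KO 2 limma called Myl9 (0.0366) and Sfrp1 (0.0347). The mean pattern of collagen VI was nearly flat (root mean square deviation 0.09), and so were the genes nearest to it, Wdr48, Map2k1, Slc31a2 and Dnaja2 (differences of 0.04 to 0.06). Col6a1, Col6a2 and Col6a3 themselves lay further from their shared mean, by 0.08, 0.12 and 0.15.

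**Figure D5:**
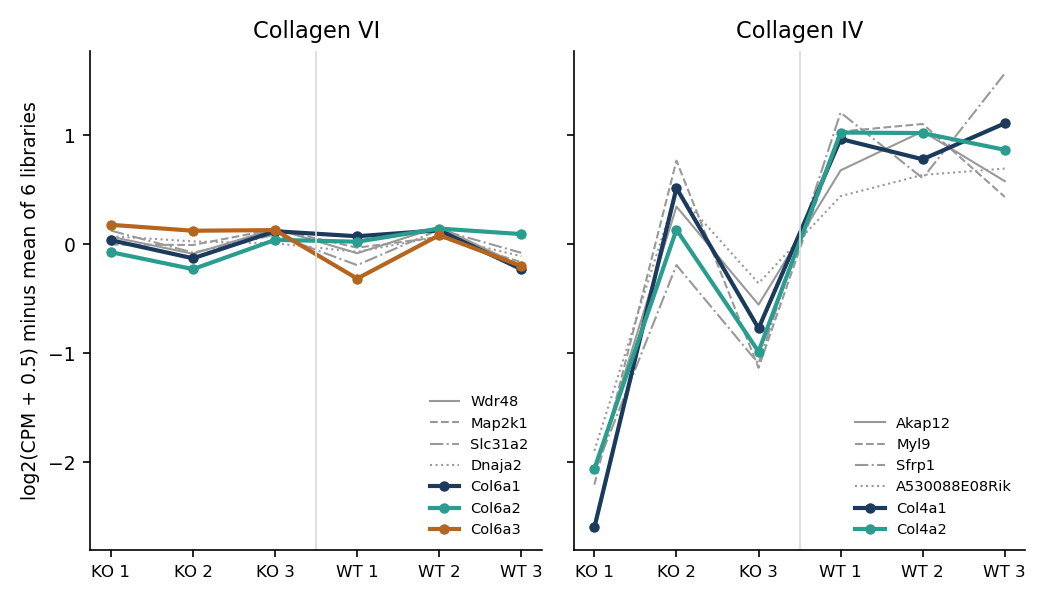
Deviation of log2(CPM + 0.5) from each gene's mean over 6 libraries, for collagen VI (left) and collagen IV (right) in colour and the 4 nearest other genes in grey; lines only join the values of 1 gene. Col4a1, Col4a2 and their nearest genes are lowest in KO 1, while the collagen VI genes stay near 0 in all 6 libraries.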

How the data were processed

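The deposited table gives 1 value per gene and library. Per its name, the signal values were made by the authors from read counts by TMM normalization to CPM, with a filter on genes. WT 1 sums to 3308720, so they are not plain CPM. The design had assumed CPM, and the same test was used. RNA libraries were stranded and from total RNA, per the labels' protocols. Tools in the submitters' processing notes, given without roles, are HISAT2 2.1.0, StringTie 1.3.5, cutadapt 1.18, edgeR and bcl2fastq, and the build is mm10. The column of KO 3 differs from its title by 1 character, and 0 columns were left unmapped. Values were whole multiples of the smallest in that library (100%, within 0.001 reads), and the multiples were taken as reads.

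Log2(CPM + 0.5) of all 10189 genes was fitted with limma 3.58.1 in R 4.3.3, with a trend of the variance on the mean, and p-values (two-sided) were adjusted by Benjamini-Hochberg over all genes and called below 0.05. The reads were tested with edgeR 4.0.16, DESeq2 1.42.0 and limma-voom as alternatives, beside another pseudocount, a filter, 2 scalings, no trend, robust fitting, a block on the replicate number and leaving out each library. Lengths, overlaps and 3′ UTRs came from GENCODE M21, promoters and the microRNA from RefSeq. The fit was tested on 4 simulated sets with 200 changed genes each. Limma called 16.5% of the 2-fold and 74.75% of the 4-fold changes, so most 2-fold changes were missed there. Python 3.11.15 and scipy 1.17.1 served for the rest. Named genes were the members, the 3 of smallest p per pathway list and the 4 of most alike pattern; the other chains, laminins, nidogen, Bgn, Itgb1, Pxdn, Serpinh1 and markers were named after their values were seen. The members and lists were chosen with earlier results of these data known.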

Additional observations from a re-analysis of the deposited data

How the results depend on the processing

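Over 18 alternatives the log2 fold change was −2.64 to −1.08 for Col4a1, −2.49 to −1.40 for Col4a2, 0.20 to 0.45 for Col6a3, −0.24 to −0.00 for Col6a2, −0.83 to −0.16 for Hspg2 and −0.41 to −0.06 for Nid1, with no change of sign. None of the 7 genes passed the adjusted threshold in any alternative, except Col4a2 without KO 2 (adjusted p = 0.0462); DESeq2 gave no adjusted p for Col4a2, Hspg2 and Nid1. Leaving out 1 library gave −0.092 to 0.087 for Col6a1, −2.49 to −1.40 for Col4a2, medians of −0.069 to 0.32 for basement membrane genes and 0.0092 to 0.38 for pericellular partners, and ratio differences of −0.10 to 0.34 for Col4a1 to Col4a2 and −0.55 to 0.18 for Hspg2 to Nid1, so the signs of Col6a1, the basement membrane median and these 2 ratios changed with the library left out; the cause was not tested. The assembly and turnover median, 0.04 with all libraries, also changed sign. It was −0.017 without KO 1, −0.078 without WT 2 and −0.0098 with edgeR. Without WT 1 and KO 2 together, chosen after seeing the data, the basement membrane median was 0.20.

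Genes called higher and lower over the whole table were 0 and 1 with limma, 7 and 3 without a trend, 1 and 3 with robust fitting, 0 and 2 with a pseudocount of 2, 0 and 2 with edgeR, 27 and 81 with DESeq2, 0 and 2 without WT 1 and KO 2, and 1 and 4 at an adjusted p below 0.1. Leaving out 1 library gave 0 to 7 higher and 0 to 25 lower, both highest without KO 2. With a replicate block 0 were higher and 0 lower, and Col4a1 (adjusted p = 0.343) and Col4a2 (0.317) were not called; same-numbered samples deviated together little (r across genes 0.03, 0.08 and −0.06), so the numbers were not taken as pairs.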
